A study of Mus musculus with 10 samples.

Results

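Expression of 36 genes of ribosome biogenesis was examined in colonies of BCR-ABL+ mouse bone marrow cells, that is, cells made to grow by a fusion kinase found in chronic myeloid and some acute lymphoblastic leukaemias. The genes were chosen by name, as subunits of RNA polymerase I, nucleolar proteins, assembly factors of both ribosomal subunits and metabolic enzymes known as targets of the transcription factor MYC. They were 36 of 45616 genes on the array, a count in which an entry without a gene symbol also stood as a gene. They were read by 62 of the 56605 probes on the array, with 1 to 4 probes a gene. All 36 passed the filter on dim probes, which kept 22008 genes in all, and each was well above background in all 4 samples of both mutant genotypes and in the wild-type channel of all 10 arrays.

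The cells carried Cdk6-K43M, a mutant CDK6 protein known to lack kinase activity, lacked CDK6 (Cdk6-/-), or were wild type (Cdk6+/+). Marrow cells of donors aged 6 weeks were transduced with retrovirus and were plated without growth factors in methylcellulose, and RNA was taken from the colonies after 10 days. Each of 4 Cdk6-K43M and 4 Cdk6-/- samples was hybridised in Cy5 on a 2-colour Agilent array, with 1 common pool of 4 wild-type samples as the Cy3 channel. On 1 further array per genotype the pooled mutant RNA was labelled with Cy3 and the wild-type pool with Cy5. The design text calls the samples biological replicates, but the labels give no number of animals or colonies behind a sample, and the wild-type pool acted as 1 control sample with no spread of its own. All values below are log2 ratios of the mutant over the wild-type pool, with the swapped arrays turned to the same direction, unless a difference between the genotypes is named.

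Ribosome biogenesis starts in the nucleolus, where RNA polymerase I transcribes the long precursor of the ribosomal RNAs. Small nucleolar ribonucleoproteins (snoRNPs) modify that precursor, and a large set of assembly factors cuts and folds it while ribosomal proteins are added, which yields the small and the large subunit. Genes of this machinery are textbook targets of MYC, which binds DNA at the E-box, and their RNA is abundant in dividing haematopoietic cells.

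The targeted gene and the cell type were checked first. Cdk6, with 1 probe whose position relative to the deleted part is not known here, had log2 ratios of 0.31, 0.4, 0.33 and 0.83 in Cdk6-K43M samples and -0.37, -0.4, -0.18 and 0.0024 in Cdk6-/- samples. All 8 markers of B-lineage progenitors were well above background in every sample and in the pool, with 2 higher and 2 lower in Cdk6-K43M and 1 higher in Cdk6-/- colonies. Of 8 measured granulocyte and monocyte markers, 5 were lower in both mutant genotypes (adjusted p under 0.05). Of these 5, 3 (Mpo, Camp and Ngp) were well above background in no single mutant sample, and S100a8 in 1, a Cdk6-K43M sample. S100a8, Mpo, Camp and Ngp thus passed the filter on dim probes only through the wild-type channel, where they were high. Their changes were read near background in the mutants. The median change of the 8 markers, these included, was -0.47 in Cdk6-K43M and -0.62 in Cdk6-/- colonies. Of 3 measured T cell markers 1 was higher in Cdk6-K43M and 2 in Cdk6-/- colonies, and of 2 erythroid markers none passed. The defining granulocyte gene S100a9 had log2 ratios of -4.2, -4.2, -4.24 and -3.48 in Cdk6-K43M samples and -3.94, -4.55, -4.25 and -4.32 in Cdk6-/- samples. The macrophage gene Lyz2 stood at 2.24 in Cdk6-K43M replicate 4, against -0.74 to -0.0011 in the other 3 Cdk6-K43M samples and -2.13 to -0.46 in the Cdk6-/- samples, and Csf1r at 1.95 in that sample followed it. These cell markers moved with both comparisons against wild type, and their part in the results below was not tested. In such mixed samples fewer cells of a type and less RNA per cell cannot be told apart.

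The start regions of the genes are shown because MYC, known to bind E-boxes, had a lower signal in Cdk6-/- colonies. Of the 36 genes, 30 had an entry among the RefSeq promoter sequences of GRCm38.p6, each running from 250 bases before to 50 bases after the start. The E-box CACGTG, which reads the same on both strands, stood in that 300-base window in 7 of the 30 genes (23.3%), against 19 of 115 further genes of the pathway (16.5%) and 2187 of 27025 genes in all (8.09%). Within the 250 bases before the start it was found in 1 member (3.33%), Nop2, against 6.86% of all genes. The 36 genes were listed as ribosome biogenesis genes and MYC targets, so the choice bears on these shares, which are a description and no test. The 250 bases before the start are given for 3 genes that were higher in Cdk6-K43M colonies, 5' to 3' in the direction of the gene, in lower case with the E-box in capitals. Nop2 lies at chr6:125131633-125131882 on the plus strand and holds the E-box 60 bases before its start. Dkc1 at chrX:75095604-75095853 and Polr1b at chr2:129100746-129100995, both on the plus strand, hold none in this window.
Nop2: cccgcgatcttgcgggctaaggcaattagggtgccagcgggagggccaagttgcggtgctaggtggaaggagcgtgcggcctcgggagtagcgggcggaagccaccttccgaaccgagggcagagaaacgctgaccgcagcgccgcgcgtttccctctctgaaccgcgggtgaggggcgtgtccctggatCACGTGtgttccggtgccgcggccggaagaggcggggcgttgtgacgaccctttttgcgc
Dkc1: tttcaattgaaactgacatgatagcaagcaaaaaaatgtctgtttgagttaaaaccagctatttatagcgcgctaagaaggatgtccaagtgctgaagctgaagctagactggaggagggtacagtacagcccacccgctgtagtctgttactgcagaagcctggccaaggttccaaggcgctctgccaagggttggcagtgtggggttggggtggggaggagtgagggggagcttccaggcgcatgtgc
Polr1b: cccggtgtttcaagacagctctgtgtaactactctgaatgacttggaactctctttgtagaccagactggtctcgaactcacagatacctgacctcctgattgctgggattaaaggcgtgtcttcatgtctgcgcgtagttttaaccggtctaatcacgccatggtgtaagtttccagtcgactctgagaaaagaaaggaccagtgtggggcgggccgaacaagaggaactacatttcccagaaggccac
In the other 6 genes the E-box lay after the start, 2 to 40 bases downstream, and the sites are given with up to 12 bases on either side. Tsr1 (chr11:74898092-74898121), Pes1 (chr11:3963965-3963994), Mybbp1a (chr11:72441355-72441376) and Wdr43 (chr17:71616220-71616249) lie on the plus strand, and Nle1 (chr11:82908355-82908384) and Utp20 (chr10:88826760-88826784) on the minus strand.
Tsr1: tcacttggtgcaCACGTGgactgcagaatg
Pes1: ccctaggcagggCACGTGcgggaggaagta
Mybbp1a: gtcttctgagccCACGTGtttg
Wdr43: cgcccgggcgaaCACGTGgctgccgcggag
Nle1: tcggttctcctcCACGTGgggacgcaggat
Utp20: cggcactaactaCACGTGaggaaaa
Among the 8 members that passed the test in a comparison, 1 of 8 with a promoter entry (12.5%) held the E-box, Nop2.

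In Cdk6-K43M colonies, Polr1b, Polr1e, Dkc1, Wdr3, Nob1, Wdr12 and Nop2 were higher than in the wild-type pool, and Odc1 was lower. These were 7 of 36 genes higher (19.4%), against 9.79% of all 22008 genes and 12.7% of the 13000 genes with a symbol, and 1 of 36 lower, against 10.3% of all genes. The other 28 did not pass the test of limma with Benjamini-Hochberg adjustment over all genes at 0.05. Fitted log2 changes ran from -0.3 for Odc1 to 0.55 for Polr1b with a median of 0.13, against a median of -0.01 over all genes, and 25 of 36 lay above 0. The largest fold was 1.46, for Polr1b, and Odc1 stood at 0.812-fold. With arrays centred on their median in place of loess, 24 of 36 genes were higher and none lower, against 28.9% of all genes past the threshold in either direction, while the median over all genes itself moved to 0.11 and that of the 36 genes to 0.37. The dye orientations then disagreed: the median of the 36 genes was 0.8 to 0.99 on the Cdk6-K43M single-sample arrays but -0.17 on the swapped array. Over all genes these medians were 0.42 to 0.55 and -0.16. Without Cdk6-/- replicate 4, which enters only through the shared spread and dye term, 15 of 36 passed, 14 of them higher. Over all genes 20.2% then passed in either direction, against 20.1% with that sample.

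In Cdk6-/- colonies, Odc1 alone was lower (1 of 36, against 3.85% of all genes) and none was higher, against 3.39% of all genes. The fitted changes of the 36 genes ran from -0.36 to 0.17 with a median of -0.047, and the median over all genes was 0.0014. Of the 36, 24 lay below 0. Cdk6-/- replicates 3 and 4 decided that median: without replicate 3 it was 0.011, with 19 of 36 genes above 0, and without replicate 4 it was -0.11, with 4 of 36 above 0. Both comparisons share the wild-type pool, so values of 1 gene in the 2 genotypes are not independent.

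**Figure D1:**
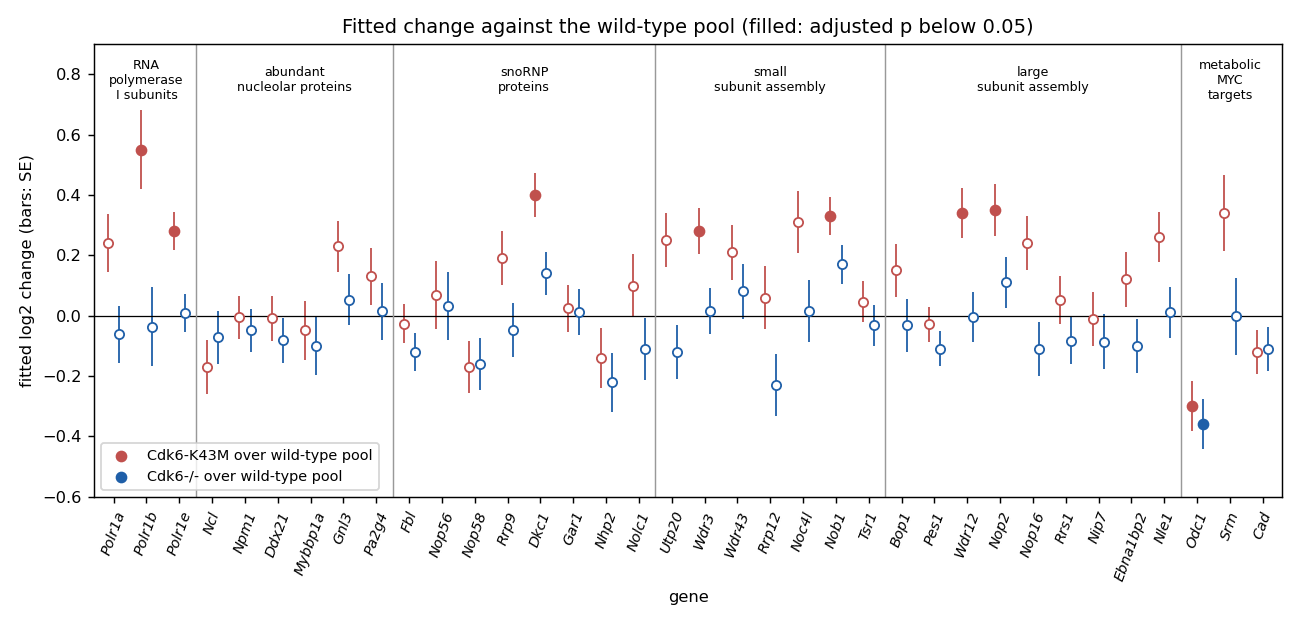
Fitted log2 change of each of the 36 genes (vertical axis, with SE bars) in Cdk6-K43M (red) and Cdk6-/- (blue) colonies over the wild-type pool, in role groups along the horizontal axis. Filled points have an adjusted p below 0.05: 8 genes in Cdk6-K43M, of which Odc1 is the 1 below 0, and Odc1 in Cdk6-/- colonies.

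The 3 subunits of RNA polymerase I all had fits above 0 in Cdk6-K43M colonies, and 2 of them rose. Polr1b, the second largest subunit, had log2 ratios of 0.57, 0.34, 0.71 and 0.64 in Cdk6-K43M samples and 0.51 on the swapped array. In Cdk6-/- samples it had -0.04, 0.18, -0.61 and 0.37, with -0.035 on the swapped array. All 5 Cdk6-K43M arrays were thus above the pool, while Cdk6-/- samples lay on both sides of it, and the highest of these, replicate 4, overlapped the lowest Cdk6-K43M sample. The fitted change was 0.55 (SE 0.132, adjusted p = 0.017) in Cdk6-K43M colonies and -0.036 (SE 0.132, adjusted p = 0.896) in Cdk6-/- colonies.

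Polr1e, a subunit with a role in initiation, had 0.2, 0.26, 0.12 and 0.21 in Cdk6-K43M samples and 0.35 on the swapped array, against -0.13, -0.081, -0.26 and 0.14 in Cdk6-/- samples and 0.12 on theirs. Its fit was 0.28 in Cdk6-K43M colonies (SE 0.062, adjusted p = 0.0113) and 0.0086 in Cdk6-/- colonies (SE 0.062, adjusted p = 0.95). Without the swapped arrays the value in Cdk6-K43M colonies was 0.2 and did not pass (adjusted p = 0.055). Polr1a, the largest, catalytic subunit, had 0.071, 0.19, -0.085 and 0.23 in Cdk6-K43M samples and -0.2, -0.2, -0.59 and 0.08 in Cdk6-/- samples. Its groups overlapped, and its fit of 0.24 in Cdk6-K43M colonies did not pass (adjusted p = 0.111).

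None of the 6 abundant nucleolar proteins passed the test in either genotype. Their fits ran from -0.17 to 0.23 in Cdk6-K43M colonies (median -0.0072) and from -0.1 to 0.053 in Cdk6-/- colonies (median -0.06). Gnl3, the nucleolar GTPase nucleostemin, had 0.19, 0.3, 0.2 and 0.33 in Cdk6-K43M samples and 0.083, 0.13, -0.27 and 0.35 in Cdk6-/- samples. The Cdk6-/- samples spread more widely and enclosed all Cdk6-K43M samples. Its fit was 0.23 (SE 0.0838, adjusted p = 0.0801) in Cdk6-K43M colonies.

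Npm1, the histone chaperone nucleophosmin, had -0.17, -0.31, -0.22 and -0.0098 in Cdk6-K43M samples, and 0.17 on their swapped array. In Cdk6-/- samples it had -0.27, -0.21, -0.4 and 0.015, and 0.12 on the swapped array. The mean of the single samples and the swapped array thus had opposite signs in both genotypes, though Cdk6-/- replicate 4 lay slightly above 0, and the fits were -0.0056 in Cdk6-K43M and -0.048 in Cdk6-/- colonies.

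Ncl, nucleolin, showed the same opposition: its log2 ratios were -0.77, -0.53, -0.34 and -0.17 in Cdk6-K43M samples but 0.13 on the swapped array, and -0.37, -0.42, -0.45 and -0.17 in Cdk6-/- samples but 0.19 on the swapped array. It was the 1 member whose dye term passed (-0.28, adjusted p = 0.0384), where 6.51% of all genes did. A second, dimmer probe of Ncl had fits of 0.36 in Cdk6-K43M and 0.19 in Cdk6-/- colonies, against -0.17 and -0.072 for the brightest probe, so the probes disagree on its direction. For Ncl no direction can be given. Ddx21, an RNA helicase, Mybbp1a and Pa2g4 had fits of -0.0088, -0.049 and 0.13 in Cdk6-K43M colonies and of -0.082, -0.1 and 0.015 in Cdk6-/- colonies. Dimmer probes of Mybbp1a gave 0.22 and 0.032 in Cdk6-K43M colonies, so its probes disagree on the direction there.

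Among 8 snoRNP proteins, Dkc1 was higher in Cdk6-K43M colonies than in the pool, and the other 7 passed in neither genotype. Dkc1, dyskerin, is the pseudouridine synthase of the box H/ACA particles and also a part of telomerase. Its log2 ratios were 0.35, 0.43, 0.29 and 0.49 in Cdk6-K43M samples and 0.35 on the swapped array, against 0.1, -0.0095, -0.057 and 0.38 in Cdk6-/- samples and 0.23 on theirs. Every Cdk6-K43M value lay above 3 of the 4 Cdk6-/- samples, and Cdk6-/- replicate 4 lay among them. The fit was 0.4 in Cdk6-K43M colonies (SE 0.0722, adjusted p = 0.00475), the smallest p of the 36 genes, and 0.14 in Cdk6-/- colonies (SE 0.0722, adjusted p = 0.261).

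Gar1 and Nhp2, partners of dyskerin in the H/ACA particle, did not pass. They had fits of 0.024 and -0.14 in Cdk6-K43M colonies and of 0.012 and -0.22 in Cdk6-/- colonies, with adjusted p from 0.201 to 0.945. A second, dimmer probe of Gar1 gave 0.2 in Cdk6-K43M and 0.061 in Cdk6-/- colonies. Nolc1, which chaperones snoRNPs, had -0.21, -0.14, -0.24 and -0.064 in Cdk6-K43M samples but 0.32 on the swapped array. In Cdk6-/- samples it had -0.43, -0.47, -0.77 and 0.022, again with a positive swapped array of 0.23. Fits were 0.1 in Cdk6-K43M and -0.11 in Cdk6-/- colonies.

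By their brightest probes, the core proteins of the box C/D particles, which carry ribose methylation, lay near or below 0. Fbl, the methyltransferase fibrillarin, and its partners Nop56 and Nop58 had fits of -0.026, 0.068 and -0.17 in Cdk6-K43M colonies and of -0.12, 0.032 and -0.16 in Cdk6-/- colonies. Rrp9, a protein of the snoRNP that guides early cleavage, had fits of 0.19 in Cdk6-K43M and -0.047 in Cdk6-/- colonies. None of these 4 passed the test. A second probe of Nop56 had a fit of 0.41 in Cdk6-K43M colonies, against 0.068 for the brightest. Dimmer probes of Nop58 gave 0.1, 0.012 and -0.059 there, against -0.17 for the brightest, so its probes disagree on the direction.

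By their brightest probes, all 7 factors of small subunit assembly had fits above 0 in Cdk6-K43M colonies, from 0.047 to 0.33 (median 0.25), and 2 of 7 passed. Nob1, the endonuclease that makes the final cut at the end of the small subunit RNA, had 0.26, 0.29, 0.25 and 0.31 in Cdk6-K43M samples and 0.36 on the swapped array. Its Cdk6-/- samples had 0.1, 0.15, -0.16 and 0.26, with 0.29 on the swapped array. Nob1 thus varied little among Cdk6-K43M samples (0.28 ± 0.0293, SD, n = 4) and more among Cdk6-/- samples (0.089 ± 0.175, SD, n = 4). Its fit was 0.33 (SE 0.0636, adjusted p = 0.0057) in Cdk6-K43M and 0.17 (SE 0.0636, adjusted p = 0.13) in Cdk6-/- colonies.

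Wdr3, a scaffold protein of the early small subunit processome, had 0.29, 0.21, 0.3 and 0.12 in Cdk6-K43M samples, 0.33 on the swapped array, and -0.019, 0.041, -0.35 and 0.17 in Cdk6-/- samples. Only Cdk6-/- replicate 4 reached into the Cdk6-K43M range. The fit was 0.28 (SE 0.0765, adjusted p = 0.0282) in Cdk6-K43M and 0.016 (adjusted p = 0.923) in Cdk6-/- colonies. A second probe of Wdr3 gave -0.011 in Cdk6-K43M colonies, and with the mean of both probes the call was lost. It did not hold either when the swapped arrays were left out (0.23, adjusted p = 0.0698), when the slide entered the fit as a block (0.31, adjusted p = 0.0515) or without Cdk6-K43M replicate 1 or 3.

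Tsr1, which acts late on the small subunit, had 0.13, 0.22, -0.12 and 0.13 in Cdk6-K43M samples and 0.0094, 0.041, -0.17 and 0.18 in Cdk6-/- samples, with fits of 0.047 in Cdk6-K43M and -0.032 in Cdk6-/- colonies. The genotypes overlapped. The other 4 factors, Utp20, Wdr43, Rrp12 and Noc4l, had fits from 0.06 (Rrp12) to 0.31 (Noc4l, adjusted p = 0.0614) in Cdk6-K43M colonies and from -0.23 (Rrp12) to 0.081 (Wdr43) in Cdk6-/- colonies, and none passed. A second, dimmer probe of Rrp12 gave -0.13 in Cdk6-K43M colonies, so its probes disagree on the direction there.

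Of 9 factors of large subunit assembly, 2 rose in Cdk6-K43M colonies, 7 had fits above 0, and the median was 0.15. Wdr12, a member of the PeBoW complex with Pes1 and Bop1, had 0.44, 0.18, 0.33 and 0.083 in Cdk6-K43M samples and 0.43 on the swapped array. In Cdk6-/- samples it had -0.1, 8.6e-06, -0.36 and 0.14, with 0.066 on the swapped array. Its fit was 0.34 (SE 0.0826, adjusted p = 0.0171) in Cdk6-K43M and -0.0036 (adjusted p = 0.985) in Cdk6-/- colonies, and without the swapped arrays the value in Cdk6-K43M colonies was 0.26 and did not pass (adjusted p = 0.0593). The other members of that complex did not pass: Pes1 and Bop1 had fits of -0.028 and 0.15 in Cdk6-K43M colonies and of -0.11 and -0.032 in Cdk6-/- colonies.

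Nop2, a methyltransferase of the large subunit RNA and the gene with the E-box shown above, had 0.076, 0.23, 0.076 and 0.3 in Cdk6-K43M samples. Its swapped array was higher, at 0.53. In Cdk6-/- samples the values were -0.067, -0.067, -0.39 and 0.23, with 0.31 on the swapped array. The fit was 0.35 in Cdk6-K43M colonies (SE 0.086, adjusted p = 0.0174) and 0.11 in Cdk6-/- colonies (adjusted p = 0.456), and without the swapped arrays the value in Cdk6-K43M colonies was 0.17 and did not pass (adjusted p = 0.207). With the slide as a block it was 0.33 and did not pass either (adjusted p = 0.0638).

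Ebna1bp2, an assembly factor of the nucleolus, had -0.0019, -0.12, -0.068 and 0.25 in Cdk6-K43M samples and -0.21, -0.17, -0.51 and 0.081 in Cdk6-/- samples. Replicate 4 was the highest in both genotypes, and the fits were 0.12 in Cdk6-K43M and -0.1 in Cdk6-/- colonies. The remaining factors, Nop16, Rrs1, Nip7 and Nle1, had fits from -0.011 (Nip7) to 0.26 (Nle1) in Cdk6-K43M colonies and from -0.11 (Nop16) to 0.011 (Nle1) in Cdk6-/- colonies. Nle1 lay just outside the threshold in Cdk6-K43M colonies, with an adjusted p of 0.0534.

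Of 3 metabolic enzymes, 1 fell in both genotypes and the others did not pass. Odc1, ornithine decarboxylase, which makes the first polyamine, had -0.32, -0.47, -0.49 and -0.14 in Cdk6-K43M samples and -0.2 on the swapped array. In Cdk6-/- samples it had -0.35, -0.31, -0.67 and -0.2, with -0.39 on the swapped array. All 10 arrays were below the pool, and the genotypes overlapped. Fits were -0.3 (SE 0.0826, adjusted p = 0.0292) in Cdk6-K43M and -0.36 (SE 0.0826, adjusted p = 0.0311) in Cdk6-/- colonies, but neither call held with Agilent's processed signals, with median centring or with the slide as a block. Under median centring the value in Cdk6-K43M colonies was -0.045 (adjusted p = 0.779). Single samples decided it too: the call was lost without Cdk6-K43M replicate 1, 2 or 3 in Cdk6-K43M colonies and without Cdk6-/- replicate 1 or 2 in Cdk6-/- colonies.

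Srm, spermidine synthase, the next enzyme of that route, had a fit of 0.34 in Cdk6-K43M colonies (SE 0.127, adjusted p = 0.0885) and -0.0025 in Cdk6-/- colonies. Cad, which starts pyrimidine synthesis, had -0.072, -0.4, -0.34 and -0.36 in Cdk6-K43M samples, 0.042 on the swapped array, and -0.2, -0.25, -0.54 and -0.17 in Cdk6-/- samples, 0.094 on the swapped array. Its single samples were all below the pool and its swapped arrays above it, and the fits were -0.12 in Cdk6-K43M and -0.11 in Cdk6-/- colonies.

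**Figure D2:**
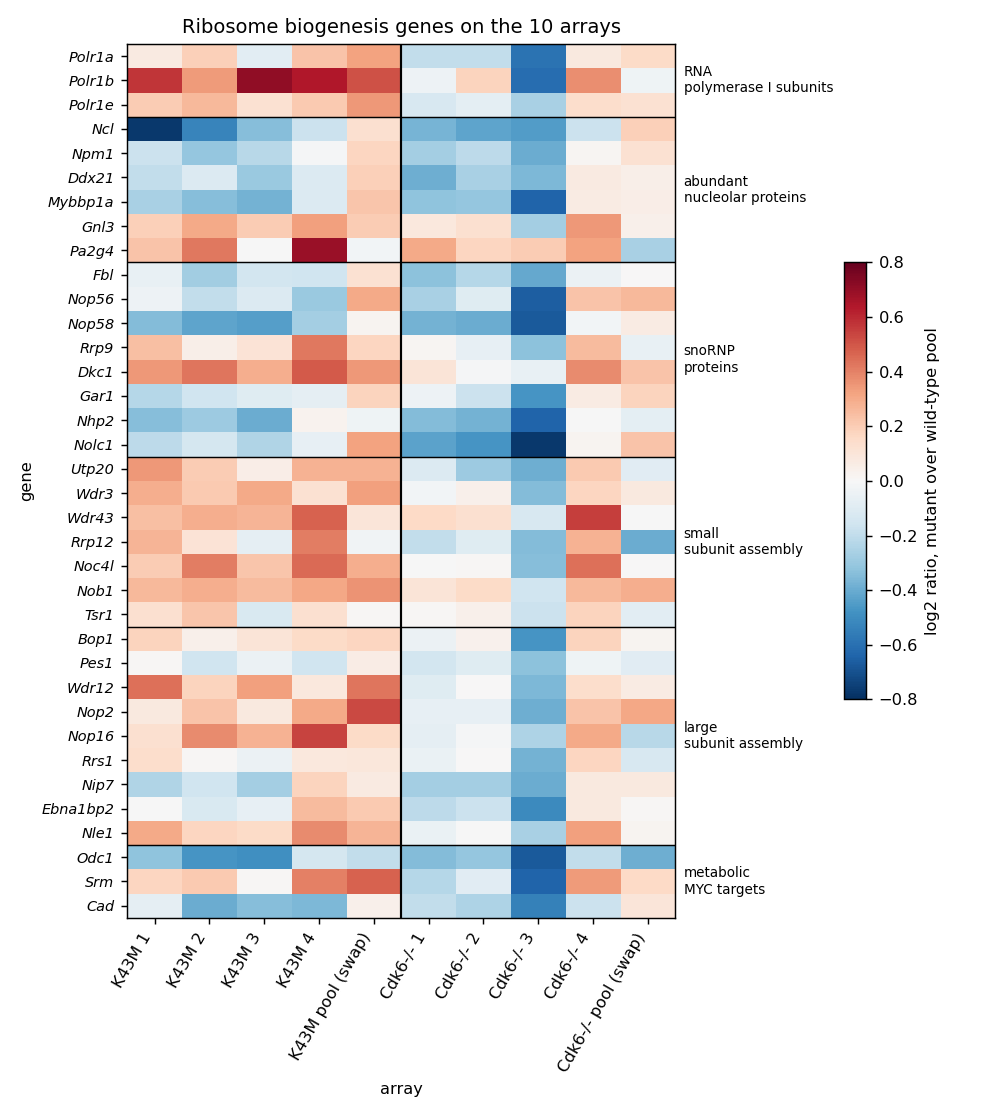
Log2 ratio of each of the 36 genes (rows, in role groups) over the wild-type pool on the 10 arrays (columns: 4 Cdk6-K43M samples and their swapped pool, then 4 Cdk6-/- samples and theirs). Red is above the pool and blue below it, with the colour scale ending at 0.8 either way; 35 of 36 genes are below the pool in Cdk6-/- replicate 3.

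The Cdk6-/- samples stood further apart from each other than the Cdk6-K43M samples. Median log2 ratios of the 36 genes were 0.13, 0.077, -0.044 and 0.16 in Cdk6-K43M replicates 1 to 4 and 0.19 on the swapped array. In Cdk6-/- replicates 1 to 4 they were -0.12, -0.093, -0.39 and 0.17, with 0.044 on the swapped array. Replicate 3 had 35 of 36 genes below the pool, and replicate 4 had 29 of 36 above it, while the median over all genes stayed between -0.018 and 0.007 on the 8 single-sample arrays.

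Replicate 4 was the highest Cdk6-/- sample for 36 of 36 genes, and for 29.7% of all genes. Replicate 3 was the lowest for 34 of 36, and for 32.2% of all genes. The gap between these 2 samples, replicate 4 minus replicate 3, had a median of 0.57 over the 36 genes and ran from 0.12 (Pa2g4) to 0.99 (Srm), against a median of 0.011 over all genes. By role its median was 0.67 for polymerase subunits, 0.42 for abundant nucleolar proteins, 0.61 for snoRNP proteins, 0.6 for small subunit factors, 0.55 for large subunit factors and 0.47 for the enzymes. Both samples were on the same slide and were scanned in the same session. These ranks were chosen after the data were seen and have no test.

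The order of the samples was much the same under each normalization tried. Replicate 4 was the highest for 33 to 36 genes and replicate 3 the lowest for 31 to 36 without background correction, with Agilent's processed signals, with median centring, in the deposited table and with probes averaged. Cell type markers also differed between these 2 samples, mostly the other way: 6 of 8 B-lineage, 7 of 8 granulocyte and monocyte, 2 of 3 T cell and 2 of 2 erythroid markers were higher in replicate 3. Among these, S100a8, Mpo, Camp and Ngp were well above background in no Cdk6-/- sample and Klf1 in 1, so their gaps were read near background. Over all genes 51.6% were higher in replicate 4. The median of replicate 4 minus replicate 3 was -0.17, -0.19, -0.086 and -0.15 for these lists. Cd79a stood at 0.67 in replicate 3 and -0.3 in replicate 4, Rag1 at 0.66 and 0.0093, and Lyz2 at -0.85 and -2.13, which are among the larger gaps. Pax5 (0.11 and 0.2), Ebf1 (0.21 and 0.24), Elane (-0.11 and -0.011) and Lck (0.4 and 0.58) were higher in replicate 4. The part of the markers in the gap of the 36 genes was not tested. Among Cdk6-K43M samples, replicate 4 was the highest for 24 of 36 genes and replicate 3 the lowest for 19, while over all genes these shares were 27.8% and 22.4%.

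**Figure D3:**
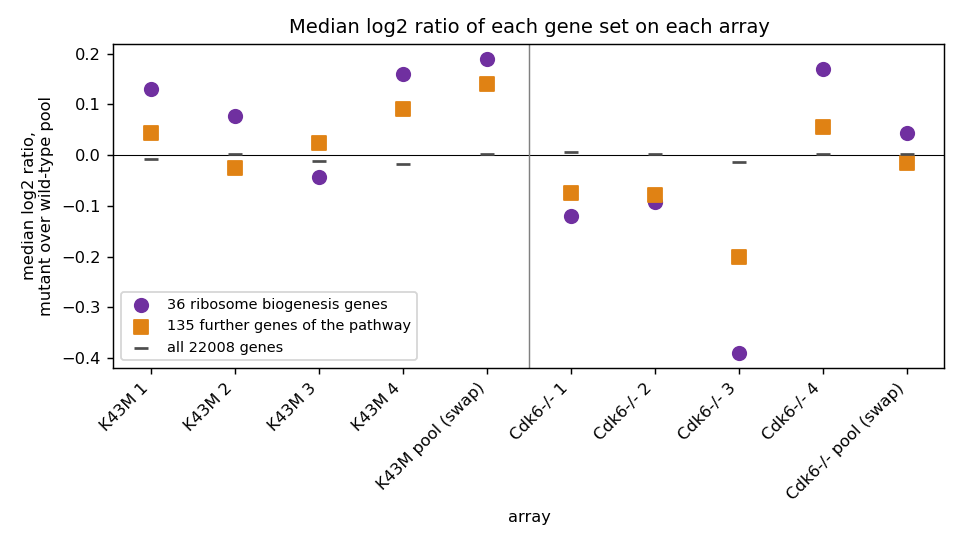
Median log2 ratio over the wild-type pool (vertical axis) of the 36 genes (circles), 135 further genes of the pathway (squares) and all 22008 genes (dashes) on each of the 10 arrays (horizontal axis). Cdk6-/- replicates 3 and 4 give the lowest and the highest single-sample median of the 36 genes, -0.39 and 0.17.

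The direct comparison of the genotypes, on the 8 single-sample arrays, asked whether loss of the protein and loss of its kinase activity differ. No member passed with limma, against 0.513% of all genes, while 8 of 36 (22.2%) had an unadjusted p below 0.05, against 14.1% of all genes. The difference, Cdk6-K43M minus Cdk6-/-, lay above 0 for 34 of 36 genes with a median of 0.19, against -0.0095 over all genes, and ran from -0.1 (Ncl) to 0.59 (Polr1b). The genotypes overlapped for all 36 genes, where the Cdk6-K43M samples lay wholly above the Cdk6-/- samples for 4.05% of all genes and wholly below for 4.11%. For Polr1b the 95% interval was 0.15 to 1.03 (adjusted p = 0.247). For Dkc1 the difference was 0.29 with an interval from 0.049 to 0.53, and for Odc1 it was 0.03 with an interval from -0.24 to 0.3.

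Cdk6-/- replicate 3 carried much of that median. Without it the median difference was 0.071 and 27 of 36 genes lay above 0. Without Cdk6-K43M replicate 4, the sample with high Lyz2, these values were 0.15 and 27. On slides 1, 2 and 3 taken singly, median differences were 0.2, 0.24 and 0.078, with 33, 33 and 25 of 36 genes above 0, where slide 2 held 2 samples of each genotype and the other slides 1 each. Over all genes 46.9 to 48.5% of differences were above 0 on these slides.

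**Figure D4:**
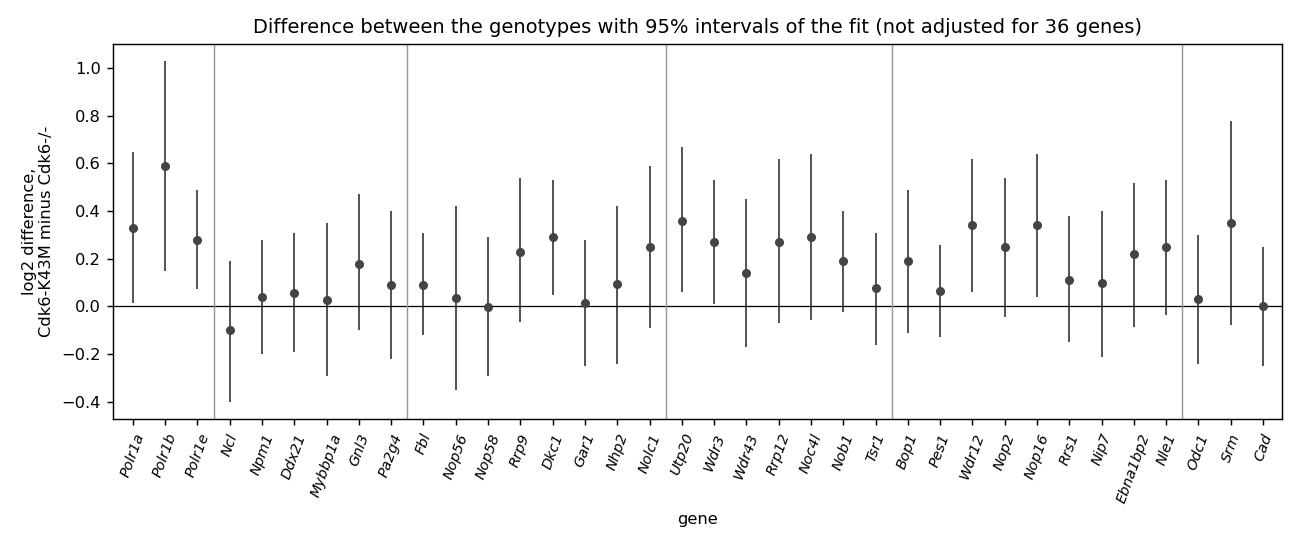
Log2 difference Cdk6-K43M minus Cdk6-/- of each gene (vertical axis, points) with its 95% interval from the fit of 8 single-sample arrays, for the 36 genes along the horizontal axis. The points lie above 0 for 34 of 36 genes, the highest being Polr1b at 0.59, and none passed after adjustment over all genes.

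The dye-swapped arrays were set against the single samples. The array with exchanged dyes had the opposite sign to the mean of the 4 single samples for 14 of 36 genes in Cdk6-K43M colonies and for 22 in Cdk6-/- colonies, with 12 genes in common. These were 38.9%, 61.1% and 33.3% of the 36 genes, against 35.1%, 39.5% and 19.4% of all genes with a value on each array, and many of the values lay near 0. The dye term was below 0 for 26 of 36 genes (72.2%), against 54.3% of all genes, with a median of -0.075 against -0.01. Without swapped arrays and dye term, 10 of 36 genes passed in Cdk6-K43M colonies (6 higher and 4 lower) and 6 in Cdk6-/- colonies, all lower, while 25% and 15% of all genes passed in these comparisons. The swapped arrays hold the pooled RNA of the same samples, so they add no further samples, and the spread they add to may be too small. Of the 8 genes that passed in Cdk6-K43M colonies, Polr1b, Dkc1 and Nob1 passed under all 16 alternatives, with fits from 0.51 to 0.74, 0.37 to 0.58 and 0.28 to 0.53. Not all 16 changed the values themselves: Polr1b and Nob1 have 1 probe each, so averaging probes left theirs as they were. Leaving out a Cdk6-/- sample acts on Cdk6-K43M fits only through the shared spread and dye term.

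**Figure D5:**
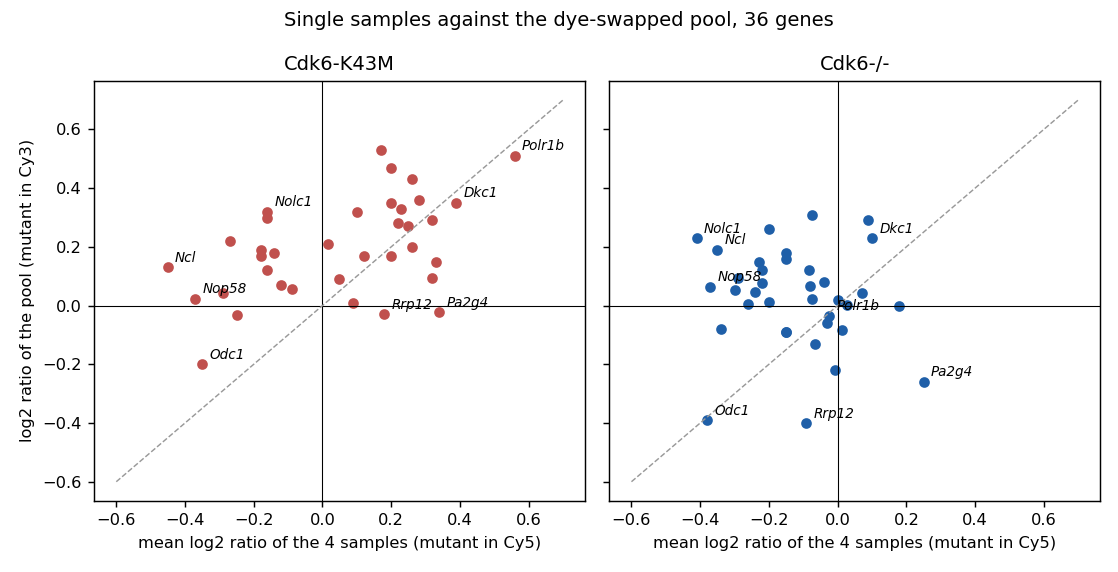
Log2 ratio of the dye-swapped pool (vertical axis, mutant in Cy3) against the mean of the 4 single samples (horizontal axis, mutant in Cy5) for the 36 genes, Cdk6-K43M on the left and Cdk6-/- on the right, with a dashed line of equality. Signs are opposite for 14 genes in Cdk6-K43M and 22 in Cdk6-/- colonies.

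The comparisons were repeated for other known genes of the pathway. Of 139 such genes that were listed, 135 were measured. In Cdk6-K43M colonies 26 were higher (19.3%, against 9.79% of all genes and 12.7% of those with a symbol) and 4 lower (10.3% of all genes). Their median change was 0.077. The 6 with the smallest p were all higher. Rrp1b, a nucleolar protein, had 0.94, 1.03, 0.62 and 0.71 in Cdk6-K43M samples and 0.23, 0.55, -0.29 and 0.56 in Cdk6-/- samples, with a fit of 0.76 (adjusted p = 0.00321) in Cdk6-K43M colonies. Each Cdk6-K43M sample lay above every Cdk6-/- sample for Rrp1b, as for 13 of 135 pathway genes (9.63%, against 4.05% of all genes). Dhx37, Pdcd11 and Pelp1, named next, were among them. For 3 of 135 (2.22%, against 4.11% of all genes) the Cdk6-K43M samples lay wholly below. Fits in Cdk6-K43M colonies were 0.48 for the helicase Dhx37, 0.47 for Utp25, 0.41 for Pdcd11, 0.39 for the helicase Ddx31 and 0.3 for Pelp1, with adjusted p from 0.000757 to 0.00441. In Cdk6-/- colonies, where 7.24% of all genes passed in either direction, 1 of 135 did, the exosome subunit Exosc5, which was higher at 0.29 (adjusted p = 0.0171), and the median was -0.034. Between the genotypes 0 of 135 passed, 21 (15.6%) had an unadjusted p below 0.05, against 14.1% of all genes, 111 differences lay above 0 and the median was 0.12. With median centring 79 of 135 were higher in Cdk6-K43M colonies and none lower, while 28.9% of all genes passed in either direction.

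Myc itself had log2 ratios of 0.022, 0.38, -0.25 and -0.095 in Cdk6-K43M samples and 0.36 on the swapped array, and of -0.59, -0.64, -0.9 and -0.49 in Cdk6-/- samples and -0.23 on the swapped array. Every Cdk6-/- sample was below every Cdk6-K43M sample, as for 4.05% of all genes. The fit was 0.2 (adjusted p = 0.185) in Cdk6-K43M and -0.45 (adjusted p = 0.0255) in Cdk6-/- colonies, and the difference between the genotypes was 0.67 (adjusted p = 0.112). Cdk6-/- replicate 3 was the lowest of its genotype for Myc and replicate 4 the highest, as for most of the 36 genes, and a link between them was not tested.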

How the data were processed

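RNA of 4 Cdk6-K43M and 4 Cdk6-/- samples, and a swapped pool of each, was hybridised against 1 wild-type pool, 100 ng per labelling. Per the file headers, spot intensities came from Feature Extraction 11.5.1.1 (Agilent). A table of normalized log2 signals of each channel was deposited by the authors, with a background correction that the sources used here do not name. Dates stood in the place of values in 68 of its cells, which were treated as missing.

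Median spot intensities were corrected with normexp (offset 50), normalized by loess within arrays and averaged per probe (limma 3.58.1, R 4.3.3, and version 1.17.8 of data.table). Symbols came from RefSeq (GRCm38.p6) by accession, for 58.3% of probes. A probe was kept if well above background in 3 of 4 samples of a genotype or 5 of 10 wild-type channels, and the brightest of a gene's probes stood for it. No spot was saturated, and the share of probes well above background was 46.9 to 49.9% in mutant and 45.8 to 50% in wild-type channels. The number of arrays limits precision: over all genes the median SE was 0.0728 against wild type and 0.106 between the genotypes. Over the 36 genes it was 0.0871 and 0.13.

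Comparisons with wild type used lmFit and eBayes on all 10 arrays with a dye term (7 residual degrees of freedom), and the genotypes were compared on 8 single-sample arrays (6 residual degrees of freedom). P-values were adjusted over 22008 genes. Tested on simulated data, the fit recovered 77.6% of 1.5-fold changes in Cdk6-K43M against wild type (4.3% of calls false) and 52.2% between the genotypes (6.63% false). The largest fold of the 36 genes in Cdk6-K43M colonies was 1.46, and their median log2 difference between the genotypes was 0.19. Recovery of such smaller changes is not given by these shares.

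The 36 genes and the other lists were chosen with earlier results of these data known. Values by sample are given for genes past the threshold and, per role group, for those with the smallest p and the smallest mean change; other genes were named for disagreeing probes or dyes after their values were seen. The alternatives changed the background correction, signal, normalization, filter, probe summary, slide, arrays and replicates. Protein and probe sequences were not used here.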

Additional observations from a re-analysis of the deposited data

How the results depend on the processing

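Where only normalization or filter changed, 8 or 9 of 36 genes passed in Cdk6-K43M colonies except under median centring (24), and the count was 5 with the slide as a block. Over all genes 28.9% passed with median centring and 15.3% with the slide as a block, against 20.1% in the fit reported above. The median of the 36 genes, 0.13 as reported, became 0.23 from Agilent's processed signals and 0.37 from median centring, and median centring made 79 pathway genes pass in place of 30. In Cdk6-/- colonies the count of 1 was 0 with processed signals, with median centring and with the slide as a block. Without swapped arrays and dye term it was 6, and 16 pathway genes passed in place of 1. In that setting 15% of all genes passed, against 7.24% in the fit reported above. With all 10 arrays 3 pathway genes passed between the genotypes, where 2.54% of all genes did, against 0.513% in the fit reported above. Leaving out 1 sample at a time, 6 to 15 genes passed in Cdk6-K43M and 0 to 2 in Cdk6-/- colonies, 0 between the genotypes, and the medians ran from 0.088 to 0.14, from -0.11 to 0.011 (above 0 without Cdk6-/- replicate 3) and from 0.071 to 0.27. Over all genes 16.3 to 20.5% passed in Cdk6-K43M and 2.78 to 8.77% in Cdk6-/- colonies with 1 sample left out. Pathway genes past the threshold in Cdk6-/- colonies then numbered up to 3. The cause of these shifts was not tested.

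Of the 8 genes past the threshold in Cdk6-K43M colonies, Polr1e and Wdr12 lost it under 1 of 16 alternatives, Nop2 under 2, Wdr3 under 5 and Odc1 under 6; none of these fits changed sign. Replicate numbers are shared by the genotypes. To compare same-numbered samples, the mean of each genotype was first subtracted from every gene. The correlations of what remained were 0.084, -0.066, 0.23 and 0.14, so they are not correlations of the whole profiles. For numbers 1, 3 and 4, but not 2, the Cdk6-K43M sample so centred correlated best with the Cdk6-/- sample of its own number. The numbers were not taken to pair samples in the comparison reported above, and whether they do was not settled. With the replicate block the median difference between the genotypes was 0.19, 34 of 36 genes lay above 0, and 0 of 36 members and 0 of 135 pathway genes passed, as without the block.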

Other observations

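By role as listed, the 135 further pathway genes in Cdk6-K43M colonies had 1 of 9 polymerase I factors higher, 3 of 14 snoRNP partners, 9 of 49 small subunit factors, 9 of 49 large subunit factors and 4 of 14 exosome genes. The share was 9.79% over all genes and 12.7% over those with a symbol. Median changes by role were 0.14, 0.06, 0.068, 0.084 and 0.033. The split by subunit is rough: Rrp1, Rrp1b, Sdad1 and Ddx18 were counted with small subunit factors, so these counts depend on the list. The 4 lower genes, named after their values were seen, were Ngdn at -0.23 and Nol7 at -0.23 among small subunit factors and Tex10 at -0.19 and Ddx54 at -0.17 among large subunit factors, with adjusted p from 0.0102 to 0.028. In Cdk6-/- colonies these genes had fits of -0.1, -0.12, -0.1 and 0.044, none of which passed.

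The gap between Cdk6-/- replicate 4 and replicate 3 was above 0 for 120 of 135 further pathway genes (88.9%), with a median of 0.34, against 51.6% of all genes.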
